A study of Rattus norvegicus with 26 samples.

Results

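The transcripts of the TGF-β ligands, their receptors, the Smad mediators and the latency protein Ltbp1 were followed during differentiation of rat progenitor cells into smooth muscle. The 9 genes were Tgfb1, Tgfb2, Tgfb3, Tgfbr1, Tgfbr2, Tgfbr3, Smad3, Smad7 and Ltbp1. They were taken by gene name from the gene probes of a rat Agilent array and were read by 11 of its 41012 probes. Where a gene had several probes, the brightest over the 26 arrays stood for it. Of the 9 genes, 8 were among the 24442 probes that were tested, having been well above background throughout 1 or more groups.

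Rat multipotent adult progenitor cells (rMAPCs) are bone marrow derived lines that express Oct4. Both lines came from female Fischer rats, Cl19 from a 3 week old animal and 3c3 from an embryo of day 18, and each line is 1 clone, so a difference between the lines is a difference between 2 clones. The cells received TGFβ1 and PDGF-BB in basal medium for 6 days, and RNA was taken on d0, d2, d4 and d6 in 3 replicates per line and day. The d0 samples carry the same treatment label as the later days and are taken here as the start of the course. Primary smooth muscle (primary SMC) was a purchased RNA on 2 arrays, called rat aortic RNA in the labels and RNA of cultured aortic smooth muscle cells by the study, so aorta and cultured cells cannot be told apart. The study calls the 3 rMAPC replicates of a time point biological, without saying whether each was a separate culture. Nothing states that the 2 primary arrays held separate RNA. The p-values therefore measure only the spread between these arrays. The smooth muscle markers were present in the primary RNA, where 9 of 9 such genes on the array were well above background on both arrays. Most were also read before differentiation, 6 of the 9 on all d0 arrays of Cl19 and 5 on all d0 arrays of 3c3. For Mylk and Myocd none of the 6 Cl19 arrays of d0 and d2 was well above background.

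TGF-β ligands are secreted in a latent form that is held in the matrix by binding proteins such as Ltbp1 and released by integrins and proteases. Active ligand binds the type II receptor Tgfbr2, which activates the type I receptor Tgfbr1 (also called ALK5), and betaglycan (Tgfbr3) presents ligand to this pair. The receptors phosphorylate Smad2 and Smad3, which enter the nucleus with Smad4, and Smad7 is an inhibitor that is induced by the signal and shuts it down. TGF-β is a known inducer of smooth muscle genes. The protein added to the cultures is not measured on the arrays, which read only the cells' own transcripts.

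The probes that read the 3 ligands, Tgfbr1 and Ltbp1 are shown first because the values below rest on where each one lies. Each is 60 bases long, and its first 30 bases are given as the scanner files list them, in lower case with no part marked. No annotation of this build was used here, so exon and UTR are not stated. The positions are on rn4.
Tgfb1, chr1:80910123-80910182, plus strand: ctttaggaaggacctgggttggaagtggat
Tgfb2, chr13:102719362-102719421, minus strand: attgcccttggaaaataaaacaggtgtata
Tgfb3, chr6:110173856-110173915, minus strand: gacaatctgttcttttgcaaacagtctttt
Tgfbr1, brightest probe, chr5:64031453-64031512, plus strand: gtatggcttttaaagtcctttttatcactg
Tgfbr1, second probe, chr5:64008765-64008824, plus strand: caatagcatgtgtatagctgaaatcgacct
Ltbp1, chr6:19942709-19942768, minus strand: tgggtggaaatggaggagtttcttagcatt

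The stretches before 2 gene starts are given from RefSeq (GRCr8), for Tgfb1 as the ligand added to the cells and for Ltbp1 as the one of the 9 genes whose window held a motif. The Tgfb1 stretch ends at the gene start, and the Ltbp1 stretch stops 45 bases short of the start taken for its window, where the annotated gene begins. Capitals mark matches on either strand to the Smad element CAGAC or to the cyclic AMP element TGACGTCA.
Tgfb1, chr1:90324062-90324311, plus strand: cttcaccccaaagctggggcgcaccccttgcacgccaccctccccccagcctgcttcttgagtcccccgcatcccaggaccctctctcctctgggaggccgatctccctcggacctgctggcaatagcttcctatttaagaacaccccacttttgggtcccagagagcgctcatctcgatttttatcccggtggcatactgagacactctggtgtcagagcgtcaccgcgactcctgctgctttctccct
Ltbp1, chr6:26177347-26177551, minus strand: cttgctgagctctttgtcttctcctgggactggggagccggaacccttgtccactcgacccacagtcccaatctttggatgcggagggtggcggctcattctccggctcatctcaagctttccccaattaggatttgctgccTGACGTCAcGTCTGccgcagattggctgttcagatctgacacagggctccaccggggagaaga
The Tgfb1 stretch held neither motif. In windows from 250 bases before to 50 after the start, CAGAC was found for 1 of the 9 genes, Ltbp1, and in 50.1% of all 33469 windows. TGACGTCA was found in 1 of 9, again Ltbp1, and in 1.83% of all windows. The AP-1 element TGANTCA and the CArG box, the site bound by serum response factor, were in none of the 9 windows and in 7.33% and 1.64% of all. A match here is a description of the sequence only.

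Most of the genes changed over the 6 days. By the F-test of limma over the 4 days, 6 of the 8 tested genes changed in Cl19, where 54.3% of all probes did, and 8 of 8 changed in 3c3, where 12224 of all 24442 probes (50%) did. Without the third 3c3 slide, on which the background was high, Tgfbr1 and Tgfbr3 were no longer called in 3c3 (adjusted p = 0.091 and 0.13). The 3c3 call for Tgfb2 (adjusted p = 0.0082) was lost with a floor on dim values (0.26) and with normexp background correction (0.70). On d6 5 genes were higher than on d0 in each line, Tgfb1, Tgfb2, Tgfb3, Smad7 and Ltbp1 in Cl19 and Tgfb1, Tgfb2, Tgfb3, Smad7 and Tgfbr2 in 3c3. Over all probes 22.0% were called higher in Cl19 and 19.7% in 3c3. Earlier in the course, 4 genes were higher and 1 lower on d2 in each line, where 11.2% and 11.5% of all probes were in Cl19 and 9.80% and 9.27% in 3c3. On d4 it was 5 and 1 in Cl19, against 20.2% and 27.1% of all probes, and 4 and 1 in 3c3, against 14.8% and 22.2%. The 1 gene that was lower on d6 was Tgfbr3 in Cl19 (all probes, 30.3%) and Tgfbr1 in 3c3 (all probes, 28.6%). The median change of the 8 genes was 1.81 on the log2 scale in Cl19 and 1.04 in 3c3, beside medians of -0.20 and -0.21 over all tested probes.

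**Figure D1:**
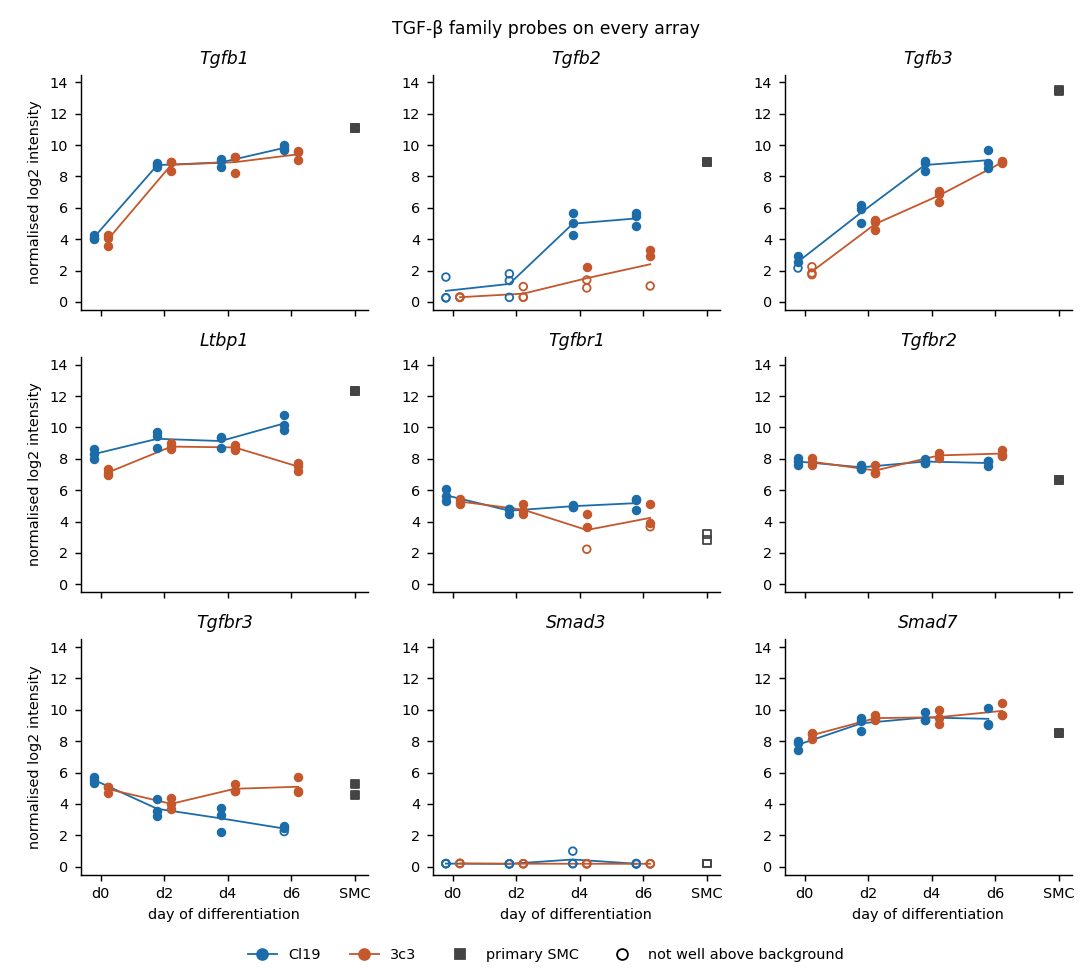
Normalised log2 intensity of the brightest probe of each gene on all 26 arrays, by day of differentiation, for Cl19 (blue), 3c3 (orange) and primary SMC (squares); lines join the means of the 3 arrays of a day and open symbols mark arrays where the probe was not well above background. Tgfb1 and Tgfb3 rise in both lines, Tgfb2 rises mainly in Cl19, Tgfbr3 lies lower on the d6 arrays of Cl19 than on those of 3c3, and Smad3 stays at the bottom of the scale; 1 d4 array of 3c3 has no Tgfbr2 value.

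Tgfb1, the ligand given to the cells as protein, rose mainly within the first 2 days on the log2 scale. In Cl19 its log2 intensity was 4.06, 4.00 and 4.27 on d0, 8.58, 8.73 and 8.86 on d2, 8.62, 8.96 and 9.11 on d4, and 9.67, 9.99 and 9.82 on d6. In 3c3 it was 3.58, 4.09 and 4.28 on d0, 8.91, 8.38 and 8.95 on d2, 9.27, 8.20 and 9.26 on d4, and 9.64, 9.07 and 9.54 on d6. No array of d2, d4 or d6 overlapped with d0 in either line. The probe was printed 10 times on the array, and every value is the mean of those spots.

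On d2 the Tgfb1 signal was 24.5-fold that of d0 in Cl19 (log2 change 4.62, SE 0.25, adjusted p = 2.5e-10) and 27.2-fold in 3c3 (4.77, SE 0.25, adjusted p = 1.9e-10). By d6 it was 52.5-fold in Cl19 (5.71, SE 0.25, adjusted p = 2.7e-12) and 43.3-fold in 3c3 (5.44, SE 0.25, adjusted p = 1.1e-11). Between d2 and d4 the means were apart by 0.17 in both lines, with adjusted p = 0.73 in Cl19 and 0.75 in 3c3. A further step from d4 to d6 passed the test in Cl19 (0.93, SE 0.25, adjusted p = 0.030) and not in 3c3 (0.50, SE 0.25, adjusted p = 0.23). The change on d6 differed between the lines by 0.28, with a 95% interval from -0.47 to 1.03 and adjusted p = 0.72.

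Tgfb3, the ligand known for its part in closing the palate, rose over more of the course, from a d0 signal near background. With normexp background correction its d6 change was 3.07 in Cl19 and 2.98 in 3c3, against 3.44 and 3.05 for Tgfb1. In Cl19 it read 2.94, 2.58 and 2.16 on d0, where 2 of 3 arrays were well above background, 5.04, 5.91 and 6.19 on d2, 8.34, 9.02 and 8.84 on d4, and 9.69, 8.87 and 8.57 on d6. In 3c3 it read 1.74, 1.84 and 2.25 on d0, where no array was well above background, 5.21, 4.61 and 5.11 on d2, 6.89, 6.36 and 7.10 on d4, and 8.83, 8.90 and 8.98 on d6. Each later day lay wholly above d0 in both lines. From d0 to d6 the fitted rise of Tgfb3 in Cl19 was 89.2-fold (6.48, SE 0.31, adjusted p = 7.1e-12). In 3c3 it was at least 75.3-fold (adjusted p = 6.5e-12). A bound given as at least sets each dim spot to the lowest signal called well above background on its array, where that is higher than its own. On the third Cl19 d0 array that signal (2.159) was below the spot's own (2.164), so the fitted fold is given. Such bounds cover dim spots only, and not the spread between arrays or the choice of background correction.

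From d2 to d4 Tgfb3 rose 8.10-fold in Cl19 (3.02, SE 0.31, adjusted p = 3.2e-06) and 3.49-fold in 3c3 (1.80, SE 0.31, adjusted p = 0.0017, and 0.051 without the third 3c3 slide). From d4 to d6 it rose 4.35-fold in 3c3 (2.12, SE 0.31, adjusted p = 4.0e-04), while in Cl19 the difference was 0.31 (SE 0.31, adjusted p = 0.71). The fitted d4 change was larger in Cl19 by 1.33 (SE 0.44, adjusted p = 0.047), which takes the 3c3 d0 signals as read although they were dim, and by 2.06 (adjusted p = 0.0038) with dim values at the floor. The call was lost without the third 3c3 slide (1.34, adjusted p = 0.14). On d6 the changes differed by -0.48, with a 95% interval from -1.40 to 0.44.

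Tgfb2 was the ligand on which the lines parted. None of the 6 Cl19 arrays of d0 and d2 was well above background for it, and it read 5.02, 4.27 and 5.68 on d4 and 5.48, 5.66 and 4.84 on d6, all well above. In 3c3 no array of d0 or d2 was well above background, 1 of 3 was on d4 (2.25) and 2 of 3 were on d6 (3.28 and 2.91, with 1.02 on the third). No Cl19 array of d4 or d6 overlapped with any 3c3 array.

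In Cl19 Tgfb2 was at least 6.19-fold higher on d4 than on d0 (adjusted p = 2.0e-06) and at least 7.82-fold higher on d6 (adjusted p = 5.3e-07). The size depends on the background correction. With normexp the Cl19 log2 changes were only 0.63 on d4 (adjusted p = 1.1e-05) and 0.73 on d6 (adjusted p = 1.4e-06). In 3c3 the fitted rise on d6 was 2.10 (SE 0.53, adjusted p = 0.0028). That call rests on signals close to background: with dim values set to the array's floor the change was 0.80 (adjusted p = 0.13), and with another background correction it was 0.11 (adjusted p = 0.33). The fitted d6 change was larger in Cl19 by 2.52 (SE 0.75, adjusted p = 0.023), by 2.15 (adjusted p = 0.015) with the floor, since d0 was dim in both lines, and by 1.82 (adjusted p = 0.15) without the third 3c3 slide. On d4 the difference was 3.07 (SE 0.75, adjusted p = 0.0081), 2.48 (adjusted p = 0.0069) with the floor, and 3.01 (adjusted p = 0.020) without that slide. With normexp the differences were 0.59 on d4 (adjusted p = 0.0031) and 0.62 on d6 (adjusted p = 0.0017).

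Ltbp1, which ties latent TGF-β to the matrix, rose in both lines by d2 and then took opposite courses. In Cl19 it read 7.98, 8.31 and 8.62 on d0, 8.68, 9.43 and 9.73 on d2, 8.70, 9.33 and 9.37 on d4, and 10.17, 10.79 and 9.82 on d6. In 3c3 it read 7.08, 6.97 and 7.33 on d0, 8.62, 8.74 and 8.99 on d2, 8.90, 8.57 and 8.71 on d4, and 7.74, 7.22 and 7.57 on d6. The d6 arrays of Cl19 were above all its earlier arrays, whereas those of 3c3 had come back to overlap with d0. Of the 8 genes only Ltbp1 was called as different between the lines on d0 (all probes, 3.07%), when it was 2.26-fold higher in Cl19 (1.18, SE 0.27, adjusted p = 0.017, and 0.074 without the third 3c3 slide).

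On d2 Ltbp1 was 1.97-fold its d0 level in Cl19 (0.98, SE 0.27, adjusted p = 0.012) and 3.15-fold in 3c3 (1.66, SE 0.27, adjusted p = 1.8e-04). From d4 to d6 it rose 2.18-fold in Cl19 (1.13, SE 0.27, adjusted p = 0.014) and was 2.33-fold lower in 3c3 (-1.22, SE 0.27, adjusted p = 0.0069, and 0.067 without that slide). On d6 the change from d0 was 1.96 (SE 0.27, adjusted p = 4.8e-06) in Cl19 and 0.38 (SE 0.27, adjusted p = 0.26) in 3c3. The difference between these changes was 1.58 (SE 0.38, adjusted p = 0.0059).

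The receptors did not follow the ligands. Of the signalling pair, Tgfbr1 and Tgfbr2, neither passed the F-test in Cl19 (adjusted p = 0.21 and 0.23), although Tgfbr1 did with a floor on dim values (adjusted p = 0.028) and with normexp (adjusted p = 0.025). Tgfbr2 read between 7.35 and 8.05 on the 12 Cl19 arrays, and its d6 change was -0.10 with a 95% interval from -0.47 to 0.27. With the slide as a block the F-test called it in Cl19 (adjusted p = 0.044). In 3c3 Tgfbr2 read 8.06, 7.60 and 7.80 on d0, 7.07, 7.10 and 7.59 on d2, 8.07 and 8.37 on d4, and 8.27, 8.16 and 8.59 on d6. The fit had no value for the second d4 array, whose spot the scanner software marked as an outlier.

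Tgfbr2 in 3c3 was thus 1.48-fold lower on d2 (-0.56, SE 0.18, adjusted p = 0.032) and 1.43-fold higher on d6 (0.52, SE 0.18, adjusted p = 0.021). The d6 call was lost without the third 3c3 slide (0.38, adjusted p = 0.15), without the second or the third 3c3 d0 array (adjusted p = 0.099 and 0.051) and without the third d6 array (adjusted p = 0.11). The d6 change was smaller in Cl19 by -0.62 (SE 0.25), which did not pass the test (adjusted p = 0.10) and did so with the slide as a block (adjusted p = 0.018).

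Tgfbr1 was read by 3 probes, of which 1 was not well above background on any array. The brightest read 6.09, 5.31 and 5.65 on d0, 4.49, 4.81 and 4.79 on d2, 4.94, 4.94 and 5.06 on d4, and 5.38, 4.73 and 5.42 on d6 of Cl19. In 3c3 it read 5.43, 5.14 and 5.26 on d0, 5.10, 4.51 and 4.67 on d2, 4.49, 3.66 and 2.24 on d4, and 5.11, 3.94 and 3.67 on d6, with the last value of d4 and of d6 not well above background. Those 2 dim values belong to the slide of high background. The other measured probe at the lower coordinate had its lowest and highest values at 3.84 and 4.71 in Cl19, and at 2.64 and 4.56 on the 3c3 arrays.

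In 3c3 Tgfbr1 was at least 2.39-fold lower on d4 than on d0 (adjusted p = 0.0019) and at least 1.82-fold lower on d6 (adjusted p = 0.044). Without the slide of high background the d4 change was -1.21 (adjusted p = 0.032) and the d6 change -0.76 (adjusted p = 0.12). The d6 call was lost with 11 of the 26 arrays left out in turn, among them each 3c3 d0 array and the second and the third 3c3 d6 array, with adjusted p up to 0.19. The second probe gave -0.97 on d4 (adjusted p = 0.054) and -0.62 on d6 (adjusted p = 0.19), so its direction was that of the first and neither passed the test. In Cl19 all d2 and d4 arrays of the brightest probe lay below d0. Its d2 change there was -0.99 (SE 0.41, adjusted p = 0.097, and 0.026 with the slide as a block), while the second probe gave 0.21 (adjusted p = 0.78).

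Tgfbr3, the co-receptor, fell in Cl19 and kept its level in 3c3 on d6. In Cl19 it read 5.34, 5.55 and 5.72 on d0, 4.31, 3.22 and 3.54 on d2, 3.74, 2.20 and 3.31 on d4, and 2.24, 2.61 and 2.45 on d6, where 2 of 3 arrays were well above background. In 3c3 it read 5.10, 4.70 and 5.05 on d0, 3.97, 3.67 and 4.38 on d2, 4.80, 4.82 and 5.28 on d4, and 4.74, 4.81 and 5.74 on d6. In Cl19 every later array lay below d0, and in 3c3 only the d2 arrays did.

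The fall in Cl19 was 3.60-fold by d2 (-1.85, SE 0.35, adjusted p = 7.2e-04), 5.48-fold by d4 (-2.45, SE 0.35, adjusted p = 1.2e-05) and at least 8.06-fold by d6 (adjusted p = 4.7e-07). With normexp these log2 changes were smaller, at -0.53 (adjusted p = 0.0015), -0.59 (adjusted p = 1.8e-04) and -0.69 (adjusted p = 2.7e-05). In 3c3 the d2 change was -0.94 (SE 0.35, adjusted p = 0.070, and 0.032 with the slide as a block), and the d6 change was 0.15 with a 95% interval from -0.59 to 0.89. The 3c3 F-test call (adjusted p = 0.044) was lost without the slide of high background (adjusted p = 0.13). The d6 change differed between the lines by -3.25 (SE 0.50, adjusted p = 1.1e-04) and the d4 change by -2.47 (SE 0.50, adjusted p = 0.0020). Without that slide these were -2.98 (adjusted p = 0.0019) and -2.36 (adjusted p = 0.012). With normexp the d6 and d4 differences were -0.81 (adjusted p = 8.1e-04) and -0.64 (adjusted p = 0.0076).

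**Figure D2:**
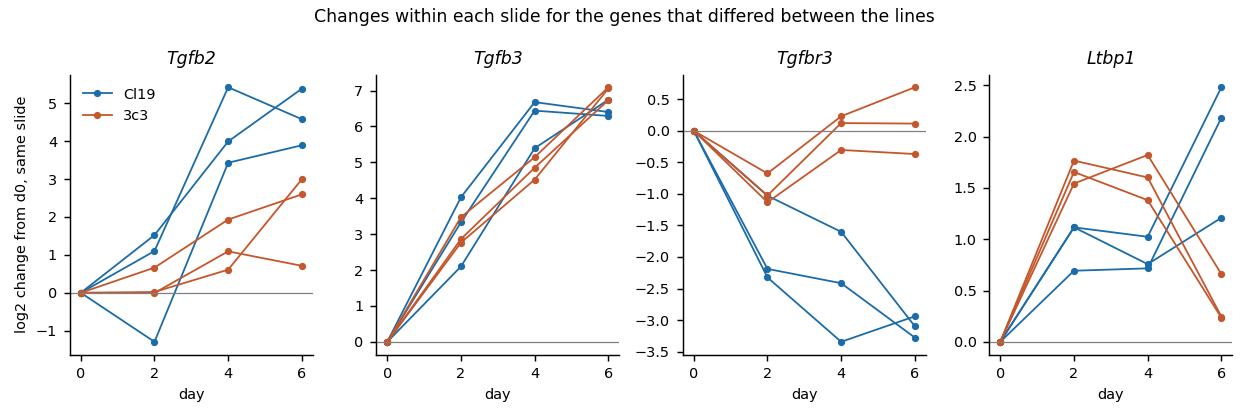
Log2 change from d0 on the same slide, by day, for Tgfb2, Tgfb3, Tgfbr3 and Ltbp1; each line is 1 slide, which held the 4 days of 1 replicate, with Cl19 in blue and 3c3 in orange. On d6 the 3 Cl19 slides lie above the 3 of 3c3 for Tgfb2 and Ltbp1 and below them for Tgfbr3, while for Tgfb3 the lines part on d4 and meet on d6.

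The slide values had the same order. Each slide held d0, d2, d4 and d6 of 1 replicate, so a change taken within a slide is free of differences between slides. Each day had the same position on every rMAPC slide, so day and position on the slide cannot be told apart. On d6 the Tgfb2 change within a slide ran from 3.89 to 5.38 in Cl19 and from 0.71 to 3.00 in 3c3. For Tgfbr3 it ran from -3.28 to -2.94 in Cl19 and from -0.37 to 0.69 in 3c3. For Ltbp1 it ran from 1.21 to 2.48 in Cl19 and from 0.24 to 0.66 in 3c3. Over all probes 17.4% were called for a d6 change that differed between the lines, and 3 of the 8 genes were. On d4 it was 14.4% of all probes and again 3 of the 8 genes, Tgfb2, Tgfb3 and Tgfbr3.

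Of the Smad genes, Smad3 could not be followed. None of the 26 arrays had its probe well above background, so it was not tested. Its placement on rn4, chr8:67804625-67811680 on the minus strand, runs over a longer stretch than the probe's 60 bases. Smad7, the feedback inhibitor, rose by d2 and stayed up in both lines. In Cl19 it read 8.02, 7.88 and 7.42 on d0, 9.32, 9.47 and 8.64 on d2, 9.86, 9.34 and 9.34 on d4, and 9.13, 10.14 and 9.01 on d6. In 3c3 it read 8.12, 8.55 and 8.47 on d0, 9.66, 9.32 and 9.42 on d2, 9.09, 9.99 and 9.51 on d4, and 9.65, 10.46 and 9.69 on d6. All later arrays lay above d0 in both lines.

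Smad7 was 2.58-fold its d0 level on d2 in Cl19 (1.37, SE 0.31, adjusted p = 0.0026) and 2.13-fold in 3c3 (1.09, SE 0.31, adjusted p = 0.016, and 0.096 without the slide of high background). By d6 it was 3.15-fold in Cl19 (1.65, SE 0.31, adjusted p = 1.3e-04) and 2.93-fold in 3c3 (1.55, SE 0.31, adjusted p = 3.3e-04). Neither the step from d2 to d4 nor that from d4 to d6 passed the test in either line, with adjusted p from 0.46 to 0.96. The largest of these steps was 0.40 in 3c3 from d4 to d6, with a 95% interval from -0.24 to 1.04. A change from d2 to d6 was not tested. The d6 changes differed by 0.10, with a 95% interval from -0.80 to 1.01.

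A single array bears on every d2 value of Cl19. The first d2 replicate of Cl19 was nearer to the 3c3 d2 arrays (root mean square distance 0.38 to 0.54 over the tested probes) than to the other Cl19 d2 arrays (0.88 and 0.92). Without it the d2 changes in Cl19 were 4.69 for Tgfb1, 3.49 for Tgfb3, -2.16 for Tgfbr3, 1.28 for Smad7 and 1.28 for Ltbp1, and all 5 calls stood, with adjusted p from 1.3e-09 to 0.010. The Cl19 step of Tgfb3 from d2 to d4 was then 2.68 (adjusted p = 2.5e-05). None of the 8 genes was called for a d2 change that differed between the lines with that array (adjusted p from 0.82 to 1.0, all probes 0.323%) or without it (adjusted p from 0.26 to 1.0).

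Primary SMC stood above both lines for the ligands and Ltbp1. Tgfb3 read 13.50 and 13.45 in primary SMC, 21.6-fold above d6 of Cl19 (4.43, SE 0.35, adjusted p = 7.7e-10) and 23.7-fold above d6 of 3c3 (4.57, SE 0.35, adjusted p = 4.8e-10). Tgfb2 read 8.92 and 8.96, 12.2-fold above d6 of Cl19 (3.61, SE 0.59, adjusted p = 2.0e-05) and at least 44.4-fold above d6 of 3c3 (adjusted p = 6.6e-09). Tgfb1 read 11.12 and 11.08, 2.42-fold above d6 of Cl19 (1.28, SE 0.28, adjusted p = 4.9e-04) and 3.21-fold above d6 of 3c3 (1.68, SE 0.28, adjusted p = 2.5e-05). For none of the 3 ligands did a rMAPC array of any day reach the primary arrays. Ltbp1 read 12.33 and 12.29, 4.14-fold above d6 of Cl19 (2.05, SE 0.30, adjusted p = 5.0e-06) and 27.9-fold above d6 of 3c3 (4.80, SE 0.30, adjusted p = 2.5e-11).

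The signalling receptors and Smad7 were lower in primary SMC than on d6. Tgfbr2 read 6.65 on both arrays, 2.12-fold below d6 of Cl19 (-1.08, SE 0.20, adjusted p = 7.8e-05) and 3.23-fold below d6 of 3c3 (-1.69, SE 0.20, adjusted p = 3.6e-07). The brightest Tgfbr1 probe was not well above background on either array and was at least 2.65-fold below d6 of Cl19 (adjusted p = 3.5e-04), while the second probe read 2.64 and 4.31 and was well above background on 1 array. Against d6 of 3c3 the Tgfbr1 difference was -1.22 (adjusted p = 0.024), and -0.21 (adjusted p = 0.56) over the mean of its probes. That call was lost in 6 of 12 processing settings, without the first primary array (-1.03, adjusted p = 0.14) and without the first 3c3 d6 array (-0.78, adjusted p = 0.13). Smad7 read 8.51 and 8.49, lower than on d6 of Cl19 by -0.93 (SE 0.34, adjusted p = 0.021) and of 3c3 by -1.43 (SE 0.34, adjusted p = 9.4e-04). The Cl19 call for Smad7 was lost in 3 of 12 processing settings (adjusted p up to 0.18), without the second d6 array (-0.57, adjusted p = 0.13) and without either primary array (adjusted p = 0.074 and 0.079).

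Tgfbr3 read 4.55 and 5.27 in primary SMC, at least 5.22-fold above d6 of Cl19 (adjusted p = 1.4e-05). Against d6 of 3c3 its difference was -0.19, with a 95% interval from -1.01 to 0.64. In all, 5 genes were higher and 3 lower than on d6 of Cl19, where 32.8% and 38.6% of all probes were called higher and lower. Against d6 of 3c3, 4 were higher and 3 lower, where 33.4% and 38.1% of all probes were. Both comparisons share the 2 primary arrays. Primary SMC was run on a slide of its own and scanned on a day of its own, so slide and cell source cannot be told apart.

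The level in primary SMC depends on scaling. The deposited log2 values were not scaled between arrays, and in them the median tested probe was lower in primary SMC by -2.17 than on d6 of Cl19 and by -2.09 than on d6 of 3c3. On that scale Tgfb1 was at -0.85 against d6 of Cl19 (adjusted p = 0.015) and -0.45 against d6 of 3c3, which turns its direction. Tgfb2, Tgfbr3 and Ltbp1 were then at 1.11 (adjusted p = 0.097), 0.31 (adjusted p = 0.47) and 0.16 (adjusted p = 0.66) against d6 of Cl19. With scaling by the 75th percentile the primary comparison moved no direction among the ligands, Ltbp1, Tgfbr2 and Smad7.

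**Figure D3:**
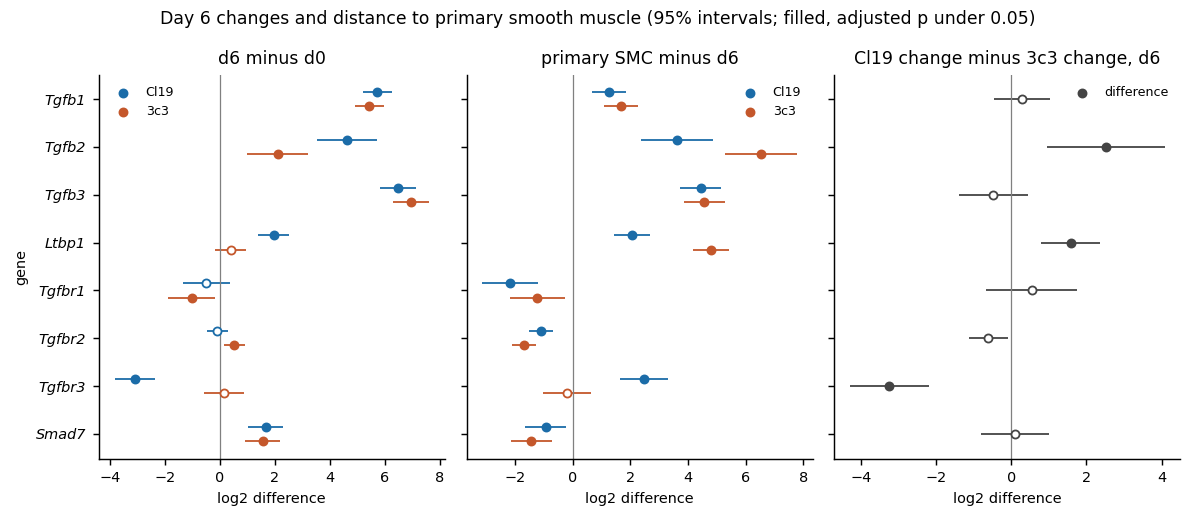
Log2 differences for the 8 tested genes with 95% intervals: d6 minus d0 (left) and primary SMC minus d6 (middle), in Cl19 (blue) and 3c3 (orange), and the Cl19 change minus the 3c3 change on d6 (right); filled symbols passed an adjusted p of 0.05. The ligands lie to the right of 0 in the left and middle panels, Tgfbr1, Tgfbr2 and Smad7 lie to the left of 0 in the middle panel, and Tgfb2, Ltbp1 and Tgfbr3 are the filled points on the right.

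A list of 53 further genes of the pathway was read by the same fit. Of these 47 were on the array and 45 were tested. In Cl19 24 rose and 5 fell by d6, and in 3c3 26 rose and 1 fell. Over all probes 22.0% were called higher and 30.3% lower in Cl19, and 19.7% and 28.6% in 3c3. The same shares stand beside each group count below. In no group was the portion that fell above its share. The portion that rose was near or below its share for the receptor-level modulators in Cl19 and for the transducing Smads and partners in both lines. Over all 45 tested pathway genes the median change was 0.71 in Cl19 and 1.05 in 3c3. The d6 change differed between the lines for 18 of the 45, larger in Cl19 for 8 and smaller for 10, where 17.4% of all probes were called.

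Target genes moved the most. Of 13 tested, 11 were higher in each line and none lower, with a median change of 3.12 in Cl19 and 2.26 in 3c3. Cdkn2b, a cell cycle inhibitor, changed by 9.96 (SE 0.85, adjusted p = 1.1e-08) in Cl19 and 7.24 (SE 0.85, adjusted p = 1.1e-06) in 3c3. Tgfbi, a matrix protein named for its induction by TGF-β, was up by at least 441-fold in Cl19, where 1 of 3 d0 arrays was well above background, and changed by 2.89 (SE 0.85, adjusted p = 0.0087) in 3c3, where 2 of 3 d6 arrays and none of d0 were well above background. Col1a1, a collagen chain, changed by 7.27 (SE 0.58) in Cl19 and 3.53 (SE 0.58) in 3c3, a difference of 3.74 (adjusted p = 0.0029). Fn1, fibronectin, changed by 6.28 (SE 0.46) and 4.15 (SE 0.46), a difference of 2.12 (adjusted p = 0.030).

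Among the 9 tested genes of latency and activation, 6 were higher in Cl19 and 7 in 3c3. Tgm2, a transglutaminase that crosslinks the latent complex, changed by 3.76 (SE 0.43) in Cl19 and 5.65 (SE 0.43) in 3c3. Fbn1, the fibrillin to which latent complexes are bound, changed by 3.30 (SE 0.37) in Cl19 and was at least 11.2-fold higher in 3c3, where 1 of 3 d0 arrays was well above background. Itgb6, a chain of the integrin that activates latent TGF-β, changed by 0.80 (SE 0.32, adjusted p = 0.043) in Cl19 and 3.32 (SE 0.32, adjusted p = 9.7e-08) in 3c3, a difference of -2.53 (adjusted p = 4.9e-04). Thbs1, an activator of latent TGF-β, was called higher in both lines, yet its probe was well above background on 1 of 3 d6 arrays of Cl19 and on none of 3c3.

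Of the 8 receptor-level modulators 2 rose and 2 fell in Cl19, and 4 rose in 3c3. Pmepa1, a target that dampens Smad signalling, changed by 5.55 (SE 0.48) in Cl19 and 1.41 (SE 0.48, adjusted p = 0.021) in 3c3, a difference of 4.14 (adjusted p = 2.4e-04). Acvrl1, the alternative type I receptor ALK1, changed by 0.90 (adjusted p = 0.087) in Cl19 and rose at least 3.44-fold in 3c3 (adjusted p = 3.2e-05), where no d0 array was well above background. Bambi, a decoy receptor, changed by 0.05 in Cl19 and 1.90 (SE 0.40, adjusted p = 5.9e-04) in 3c3. Tgfbrap1, which binds the receptors, was at least 2.96-fold lower in Cl19 (adjusted p = 0.015, 2 of 3 d6 arrays well above background) and at -1.03 (adjusted p = 0.12) in 3c3.

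Of the 7 transducing Smads and partners, 5 passed the test in neither line. Foxh1, a partner of Smad2, changed by 5.62 (SE 0.46) in Cl19 and 2.46 (SE 0.46) in 3c3, a difference of 3.16 (adjusted p = 0.0016), and was the 1 gene called higher in each line. Smad2 was the 1 gene called lower in each, at -1.10 (SE 0.29, adjusted p = 0.0033) in Cl19 and -0.89 (SE 0.29, adjusted p = 0.016) in 3c3. Trim33, a ligase of Smad4, was at 0.55 and 0.45, and Crebbp, a co-activator, at -0.36 and -0.26, none past the test.

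Of the 8 other feedback inhibitors and repressors 4 rose and 2 fell in Cl19, and 3 rose in 3c3. The Smad repressors Tgif1 and Skil changed by 2.85 (SE 0.35) and 2.16 (SE 0.24) in Cl19 and by 1.67 (SE 0.35) and 1.16 (SE 0.24) in 3c3. Dcn, decorin, which binds TGF-β, rose at least 1.52-fold by d6 in Cl19 (adjusted p = 1.4e-07, no d0 array well above background) and was not well above background on any 3c3 array of d0 or d6. Nedd4l, a ubiquitin ligase for Smad2 and Smad3, changed by 0.29 (adjusted p = 0.19) in Cl19 and 1.55 (SE 0.18, adjusted p = 1.2e-06) in 3c3.

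**Figure D4:**
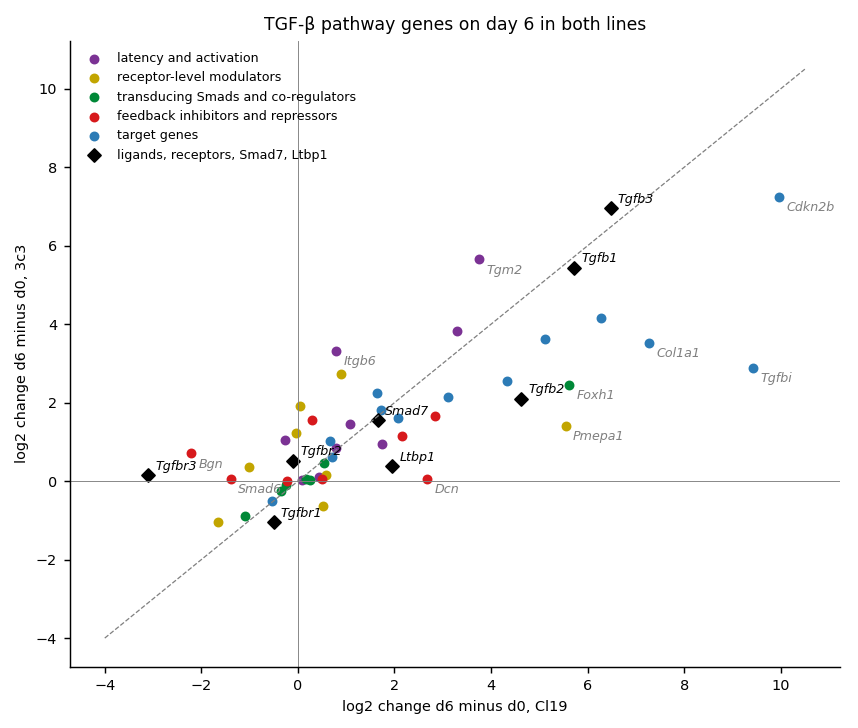
Log2 change from d0 to d6 in Cl19 (x axis) against 3c3 (y axis) for the 45 tested pathway genes, coloured by group, and for the 8 tested genes described first (black diamonds); the dashed line marks equal change. Tgfb1 and Tgfb3 lie near the line, most target genes lie to its right, and Tgfbr3 and Ltbp1 lie near 0 on the 3c3 axis.

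The course of each gene was also set against the other named probes on the 24 rMAPC arrays. The points share lines, days and slides, so the correlations only describe likeness. For Tgfb1 the highest Pearson correlations were with Fam176b (0.98), Sdf2 (0.98) and Coro1a (0.98), and for Tgfb3 with Higd2a (0.98), Capn2 (0.98) and Fhl2 (0.98). For Tgfb2 they were with Cd47 (0.95), Pcdh8 (0.95) and Col15a1 (0.95), and for Tgfbr3 with Serhl2 (0.95), Siglec5 (0.94) and Mbnl3 (0.94). For Smad7 they were with Cyr61 (0.93), Ubap1 (0.92) and Lphn2 (0.92), and for Ltbp1 with Lrrk1 (0.89), Cmpk2 (0.88) and Ptk7 (0.87).

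The mix of cells could move with these values, and in RNA from whole cultures fewer cells of a type cannot be told apart from less RNA per cell. Summed over the smooth muscle list, the linear signal of 9 genes ran from 1921 to 2321 on d0, from 61510 to 73305 on d6 of Cl19, from 29186 to 46368 on d6 of 3c3, where d0 had 1557 to 1799, and from 96151 to 98403 in primary SMC. The d6 sums rest mostly on the brightest gene, with a mean log2 of 15.85 in Cl19 and 14.78 in 3c3. Well above background on all arrays were 6 of the 9 on d0 and 7 on d6 of Cl19, and 5 on both days of 3c3. The 6 fibroblast markers summed to 5365 to 5940 on d0 and 9595 to 15303 on d6 of Cl19, to 4658 to 5329 and 1861 to 3917 in 3c3, and to 65528 to 68696 in primary SMC. Of these markers Dpt was not well above background on any array. Dcn and Col1a1 are also in the pathway list, and Pdgfra is also in the rMAPC list. The 6 did not move together. In 3c3 Col1a1 rose from a mean log2 of 6.01 on d0 to 9.53 on d6, while the highest mean of the 6 went from 12.25 to 10.48. In Cl19 the highest mean was 12.34 on d0, and Col1a1 rose from 6.00 to 13.26. The 4 Schwann and neural markers, of which S100b was not well above background on any array, summed to 62.4 to 102 on d0 and 1230 to 4551 on d6 of Cl19, and to 66.2 to 100.1 and 236 to 712 in 3c3, on d6 mostly from Sox10. The 9 rMAPC and primitive endoderm genes summed to 42485 to 45263 on d0 and 17115 to 25566 on d6 of Cl19, to 45281 to 49161 and 30292 to 32230 in 3c3, and to 1827 to 1881 in primary SMC. The 7 blood and macrophage genes summed to 241 to 290.3 and 166 to 238 in Cl19 and to 141 to 178 and 745 to 1978 in 3c3, on d6 of 3c3 mostly from Csf1r, while Ptprc, Cd3e and Hbb were not well above background there. The 7 endothelial genes went from 245 to 296 on d0 to 58.1 to 88.2 on d6 in Cl19 and from 149 to 179 to 190.4 to 224 in 3c3, and the 6 adipocyte genes from 23.9 to 29.1 to 20.2 to 37.6 and from 9.53 to 12.4 to 49.0 to 91.2. None of the 6 adipocyte genes was well above background on any d0 array of 3c3, and 1 of them was on all its d6 arrays. The highest mean log2 of these genes in 3c3 was 1.26 on d0 and 5.42 on d6. The part of these cell types in the results was not tested.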

How the data were processed

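RNA of 26 samples was hybridised to 1-colour Agilent rat arrays designed on rn4. The deposited scanner files hold intensity values from Agilent Feature Extraction 10.1.1.1, which subtracted the background and detrended each array, and the raw feature and local background intensities. The deposited series table holds log2 values that equalled the log2 of the processed intensity within 5.15e-14 and were not normalized between arrays.

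From these, the log2 processed intensity of each gene feature was brought to a common distribution across 26 arrays by quantile normalization, features the scanner software marked as outliers were dropped, and features of 1 probe were averaged. Values of different probes are not comparable as levels. The 24442 probes that the scanner called well above background throughout 1 or more of the 9 groups entered a single limma model (limma 3.58.1, R 4.3.3) of all groups, with Benjamini-Hochberg adjustment over all of them and a threshold of 0.05. The fit was tested on simulated data with independent noise on each array, which cannot check it for deviations shared within a slide. The members and gene lists were chosen with earlier results of these data known. Named were all 9 genes, the 4 pathway genes per group with the largest absolute mean d6 change over the lines, and, for each gene that changed in both lines, the 3 probes with the highest correlation.

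Negative-control signals were 11.0 to 16.1 on 22 arrays and 28.3 to 47.7 on the 4 arrays of the third 3c3 replicate, and 43.2% to 61.4% of gene features were well above background. The number of arrays limits the precision. Each of 6 slides held the 4 days of 1 replicate of a line, and primary SMC had a seventh. There were 3 scan days, 1 for each line and 1 for primary SMC, so line and scan day cannot be told apart. Deviations of same-numbered arrays correlated above 0.1 in 18 of 18 pairs of 3c3 and 16 of 18 of Cl19 (lowest 0.061). Alternatives were scaling by the 75th percentile, normexp background correction with offset 50, the deposited log2 values, no filter, a floor on dim values, outliers kept, the slide as a block, fits of the compared groups alone, the mean over a gene's probes, the methods' t-test and leaving out each array. Leaving out the 3c3 slide of high background was chosen after seeing the data.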

Additional observations from a re-analysis of the deposited data

Results flagged for a closer look

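The results here are those where the change from d0 differed between the lines by a test of the difference itself in limma. On d4 the change in Cl19 minus that in 3c3 was 3.07 for Tgfb2 (adjusted p = 0.0081), 1.33 for Tgfb3 (adjusted p = 0.047) and -2.47 for Tgfbr3 (adjusted p = 0.0020). On d6 it was 2.52 for Tgfb2 (adjusted p = 0.023), -3.25 for Tgfbr3 (adjusted p = 1.1e-04) and 1.58 for Ltbp1 (adjusted p = 0.0059). The Tgfb3 call on d4 and the Tgfb2 call on d6 were lost without the third 3c3 slide. The Tgfb2 call on d6 was also lost in 5 of 26 fits with 1 array left out. Each line is 1 clone and was scanned on a day of its own.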

How the results depend on the processing

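Among the values of single genes, 1433 kept their direction and their side of the threshold, 51 lost the call, 2 gained it and 18 turned direction, and 535 counts stayed within 1.5 times against 29 that moved. The single gene called lower on d6 in 3c3, Tgfbr1, gave a count of 0 with the deposited log2 values, with no filter, in the fit of the compared groups alone, with the mean over a gene's probes, by the methods' t-test before and after adjustment and without the 3c3 slide of high background, and 0 to 1 over arrays left out. The 1 pathway gene lower in 3c3 became 2 with 75th percentile scaling, normexp and the unadjusted methods' t-test, 0 with the deposited values and without that slide, and 0 to 2 over arrays left out. With the adjusted methods' t-test 3 pathway genes were lower in Cl19 and 3 of the 8 genes higher on d6 in 3c3.

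With the deposited values 1 of the 8 genes was higher in primary SMC than on d6 of Cl19, Tgfb1 turned to -0.85 and, against 3c3, to -0.45, and Tgfbr2 on d6 of Cl19 to 0.22. The share of higher calls was then 8.30% against Cl19 and 9.50% against 3c3 (45.9% and 46.7% after quantile normalization), and for d6 against d0 55.7% in Cl19 and 56.4% in 3c3 (42.1% and 40.7%). Tgfbr3 in primary SMC against 3c3 d6 turned to 0.056 with 75th percentile scaling and 0.14 without the slide. The d6 line difference of Tgfb3 turned to 0.094 with normexp and 0.24 with the floor. Without the slide Tgfbr3 on d6 of 3c3 was -0.13 and the line difference of Smad7 -0.060. Over arrays left out Tgfbr2 on d6 of Cl19 ran from -0.22 to 0.010, Tgfbr3 on d6 of 3c3 from -0.18 to 0.33, the line difference of Smad7 from -0.25 to 0.36 and Tgfbr3 in primary SMC against 3c3 from -0.55 to 0.18. The line difference of Tgfb2 on d6 ran from 1.83 to 2.96 (adjusted p from 0.0090 to 0.071), losing its call in 5 of 26. The causes were not tested.

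With the replicate block (slide), 7 of the 8 genes changed over time in Cl19, 8 in 3c3, and 4 differed between the lines on d6, against 6, 8 and 3 without it. Besides the calls given above it added Tgfbr2 on d2 against d0 (adjusted p = 0.032) and on d4 against d2 (adjusted p = 0.034) in Cl19, and d4 against d2 in 3c3 for Tgfbr1 (adjusted p = 0.012) and Tgfbr3 (adjusted p = 0.041), and changed no other call of the 8 genes. Signal near background limits Tgfb2 in 3c3 and on d0 and d2 of Cl19, Tgfb3 on d0, Tgfbr3 on d6 of Cl19, and Smad3 throughout. The size of the Tgfb1 rise also depends on the background correction.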
